A study of Mus musculus with 4 samples.

Results

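The mRNAs described here encode 52 proteins that shorten, decap, degrade, stabilise or chemically mark messenger RNA. They were taken by gene symbol from 1 deposited list of places where NAT10, the enzyme that writes N4-acetylcytidine (ac4C) on RNA, was found on transcripts. Of the 52 genes, 18 had at least 1 listed peak, and together these held 37 of the 4172 distinct peaks in the list. The other 34 genes count as without a listed peak, which does not show that NAT10 is absent from them.

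The assay was eCLIP, in which ultraviolet light fixes RNA to the proteins in contact with it, NAT10 is recovered with an antibody, and the RNA fragments still attached are sequenced. The cells were 32D, a mouse line that needs interleukin-3 to grow and that the labels assign to bone marrow. All 4 libraries came from wild-type cells grown with mouse interleukin-3 at 10 ng/mL and irradiated at 254 nm with 150 mJ as the label gives it: 2 immunoprecipitates with 20 µg of NAT10 antibody and 2 inputs, whose antibody label reads none. None of the 4 is labelled as NAT10-deficient, and the labels do not say if replicates were grown apart. The authors joined the libraries into a single list with no value per library, so no spread between replicates could be computed and no difference below was tested. Each peak has the authors' fold of immunoprecipitate over input, read here as log2, and the authors' p, read as -log10 p. The lowest values in the list are 3.00 and 3.07, so weaker contacts are not seen. Without expression values the cells' identity was not checked against markers, and an mRNA that is scarce in 32D cells cannot be told apart from one that NAT10 does not touch.

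An mRNA usually dies in steps. Deadenylases of the CCR4-NOT and PAN2-PAN3 complexes shorten the poly(A) tail, after which the DCP2 enzyme removes the cap and an exonuclease digests the body from the 5′ end, or the exosome digests it from the 3′ end. Nonsense-mediated decay removes mRNAs that carry premature stop codons. Which mRNAs enter these routes is set in part by proteins that read AU-rich or Pumilio elements in 3′ UTRs, by Argonaute proteins guided by microRNAs, and by N6-methyladenosine (m6A), a mark with its own writers, erasers and readers.

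Among the 52 members, NAT10 peaks were listed at every one of these steps except the exosome. Proteins that bind AU-rich or Pumilio elements had 4 of 5 members with a peak. Deadenylation factors had 5 of 11, nonsense-mediated decay factors 2 of 6, the m6A machinery 4 of 13, decapping and 5′-to-3′ decay 2 of 8, and the Argonaute group 1 of 4. None of the 5 exosome members had one, though Exosc8, an exosome gene outside the 52, had 2 peaks. The total of 18 of 52 is 34.6%, beside 7.33% of the 21900 protein-coding genes in the RefSeq table. That background includes genes that 32D cells may not transcribe, and the members were chosen with earlier results of this list known, so the 2 shares are set side by side without a test. Groups of 4 to 13 genes are too small for their order to be read as a ranking.

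**Figure D1:**
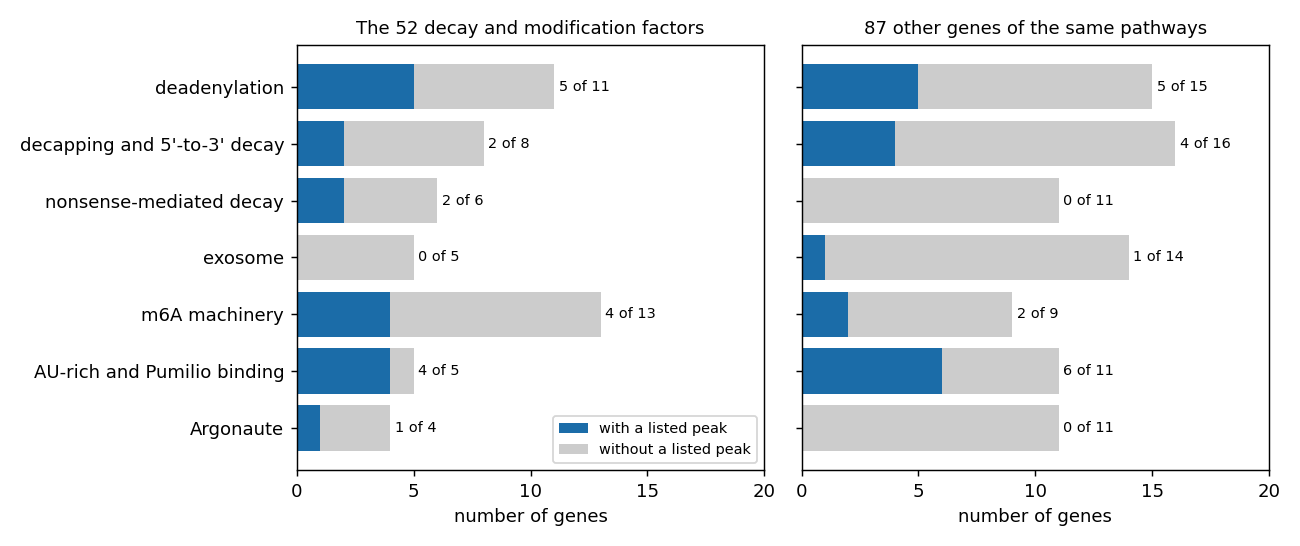
Number of genes (horizontal axis) with a listed NAT10 peak (blue) and without one (grey) in each role group, for the 52 factors (left) and for 87 further genes of the same pathways (right). AU-rich and Pumilio binding proteins had 4 of 5 and 6 of 11 genes with a peak, while the exosome group had 0 of 5 and 1 of 14. Among the further genes, the nonsense-mediated decay and Argonaute groups each had 0 of 11.

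The deadenylation group held the mRNA with the most peaks and one of the strongest. Pabpc1 encodes the main cytoplasmic poly(A)-binding protein, which coats the tail and is in contact with both translation and deadenylation. It had 9 of the 37 peaks, on the minus strand of chromosome 15 (GRCm39), and was the only one of the 18 genes with peaks in all 3 of the authors' classes. The first peak in the direction of transcription lay in the 5′ UTR at 36608905 to 36608963, with a log2 fold of 3.02, the lowest of all 37. An exon peak of 4.89 followed at 36606081 to 36606133. The remaining exon peaks, of 5.25, 5.42 and 4.12, lay between 36596807 and 36597282. In the 3′ UTR, 4 peaks of 3.92, 3.89, 4.65 and 5.07 covered 272 of the 418 nt between 36595927 and 36596344. The strongest Pabpc1 peak was thus the exon peak of 5.42 (42.9-fold) at 36596858 to 36596899, and the peak nearest the 3′ end was the strongest of its 3′ UTR. Pabpc4, a related cytoplasmic poly(A)-binding protein, had no listed peak.

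Cnot1, the scaffold on which the CCR4-NOT complex is built, had a single peak in the 3′ UTR with a log2 fold of 6.07 (67.1-fold) and a -log10 p of 13.7. It spans 188 nt at chromosome 8, 96456868 to 96457055, on the minus strand. Only 2 other member genes, Zfp36l1 and Smg1, reached a higher fold. Cnot6 and Cnot6l encode alternative catalytic subunits of this complex, and each had 1 peak in its 3′ UTR. That of Cnot6 had a log2 fold of 4.43 over 190 nt (chromosome 11, 49563869 to 49564058). That of Cnot6l had 4.25 over 140 nt (chromosome 5, 96224779 to 96224918). Both lie below the list's median of 4.60, in contrast to the scaffold. The other pair of catalytic subunits, Cnot7 and Cnot8, and the non-catalytic Cnot2 and Cnot3 had no listed peak. Pan3, the adaptor that brings the PAN2 nuclease to the tail, had 3 separate peaks on chromosome 5. An exon peak of 4.50 lay at 147454165 to 147454326, and 3′ UTR peaks of 4.05 and 4.61 lay at 147479903 to 147480022 and at 147485159 to 147485229. The 3′ UTR peaks are 5136 nt apart. Pan2 itself had no listed peak.

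Of the decapping and 5′-to-3′ decay factors, Dcp2 and Xrn2 had peaks. Dcp2, the enzyme that cuts off the cap, had 2 touching exon peaks over 104 nt, with log2 folds of 5.44 (43.5-fold) over 79 nt and 4.38 over the next 25 nt. It and Upf3b were the only ones of the 18 genes with peaks in exons alone. Xrn2, the exonuclease of the nucleus, had 2 touching 3′ UTR peaks of almost the same fold, 4.31 and 4.32, over 207 nt at chromosome 2, 146919583 to 146919789. Its cytoplasmic relative Xrn1, which digests decapped mRNA, had no listed peak. Nor had the decapping co-factors Dcp1a, Edc3, Edc4, Lsm1 and Ddx6.

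Nonsense-mediated decay was represented by its kinase and by 1 of its UPF proteins. Smg1, the kinase that phosphorylates UPF1, had an exon pair with log2 folds of 6.22 and 6.23 (74.8-fold), separated by 1 nt, at chromosome 7, 117791113 to 117791253. The -log10 p values of this pair were 15.9 and 16.6. The remaining Smg1 peak, of 4.77, lay 60265 nt further along the gene in the 3′ UTR, at 117730713 to 117730847. Upf3b, which links the UPF proteins to exon junction complexes, had 1 exon peak of 4.31 over 194 nt on chromosome X, 36362612 to 36362805. The helicase Upf1, its partner Upf2, and Smg5 and Smg6, which act on the phosphorylated helicase, had no listed peak.

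The exosome, the nuclease complex that works from the 3′ end, had no listed peak on Exosc2, Exosc3, Exosc9, Exosc10 or Dis3.

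In the m6A machinery all 5 peaks lay in 3′ UTRs. Alkbh5, a demethylase that removes m6A, had 2 peaks on chromosome 11, one of 4.05 at 60446088 to 60446174 and one of 5.07 (33.7-fold) at 60448709 to 60448804. They are 2534 nt apart, and the downstream peak was the stronger. Fto, the other demethylase, had none. Among the cytoplasmic readers, Ythdf2, which directs methylated mRNA to decay, had a peak of 4.41 over 150 nt at chromosome 4, 131913779 to 131913928. Ythdf3 had one of 4.12 over 53 nt at chromosome 3, 16268879 to 16268931. Ythdf1, of the same family, and the nuclear reader Ythdc1 had none. Wtap, a regulatory subunit of the methyltransferase complex, had a peak of 3.20 (9.21-fold) at chromosome 17, 13186136 to 13186228, and 1.70% of the list's peaks had a lower fold. The catalytic pair Mettl3 and Mettl14 and the subunit Virma had no listed peak, nor had the readers Igf2bp1, Igf2bp2 and Igf2bp3, which stabilise their targets. Of the proteins that write, remove or read m6A, those with peaks thus included an eraser, a writer subunit and 2 readers.

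The proteins that read 3′ UTR elements had the strongest peak of all 37. Zfp36l1, a zinc finger protein that binds AU-rich elements and recruits deadenylases, had 2 touching 3′ UTR peaks that together cover 302 nt at chromosome 12, 80154811 to 80155112. The upstream piece had a log2 fold of 5.43 and the downstream piece, 219 nt and the widest of the 37, had 6.27 (77.0-fold, -log10 p of 16.8). In the whole list 89.2% of peaks had a lower fold than this one. Zfp36l2, its paralogue, had a single 3′ UTR peak of 3.60 over 154 nt (chromosome 17, 84492454 to 84492607), but a -log10 p of 6.41. Zfp36, the founding member of this family, had none. Elavl1 encodes HuR, which binds AU-rich elements and protects mRNA from decay. Its exon pair of 4.38 and 4.59 covered 143 nt at chromosome 8, 4345428 to 4345570, and its 3′ UTR pair of 5.38 and 4.55 covered 192 nt at 4339383 to 4339574. Pum2, a Pumilio repressor, had 1 peak of 4.69 over 143 nt in the 3′ UTR (chromosome 12, 8800009 to 8800151).

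In the Argonaute group Ago2, the Argonaute protein that can itself cut a target RNA, had a 3′ UTR peak of 4.05 over 106 nt at chromosome 15, 72974379 to 72974484. Its -log10 p of 3.27 was the lowest of the 37, shared with one peak each of Alkbh5 and Pan3. Ago1 and the scaffold proteins Tnrc6a and Tnrc6b, which tie Argonaute to the deadenylases, had no listed peak.

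**Figure D2:**
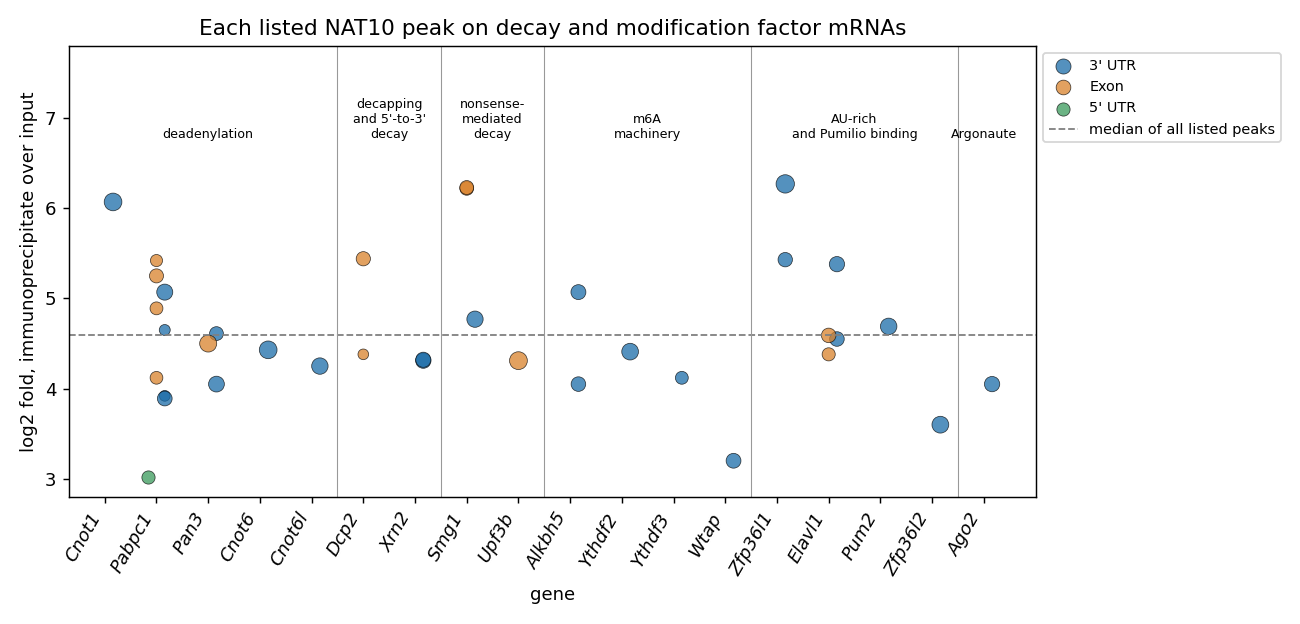
Log2 fold of immunoprecipitate over input (vertical axis) of each of the 37 peaks on the 18 genes, ordered by role group; colour gives the authors' class and the point's size grows with peak width. The dashed line is the median of all listed peaks, 4.60; points of 1 gene are shifted sideways by class, and the near-equal pairs of Smg1 (6.22 and 6.23) and Xrn2 (4.31 and 4.32) overlap.

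Several gene families were split between listed and unlisted copies, in a set where 34.6% had a peak, beside 7.33% of protein-coding genes. Whether splits were more frequent than these shares would give was not tested. Pabpc1 had peaks and Pabpc4 had none, Ythdf2 and Ythdf3 had peaks and Ythdf1 had none, and Zfp36l1 and Zfp36l2 had peaks and Zfp36 had none. Likewise Xrn2 was listed without Xrn1, and Ago2 without Ago1. Cnot6 and Cnot6l were both listed, and their folds of 4.43 and 4.25 were close. Other families had no listed copy among the members: Cnot7 and Cnot8, Tnrc6a and Tnrc6b, and Igf2bp1, Igf2bp2 and Igf2bp3. The strongest peak had a log2 fold of 6.27 in Zfp36l1 and 3.60 in Zfp36l2, both in the 3′ UTR. How reads that fit more than 1 copy of a family were assigned is not stated in the labels. No row of another gene overlapped any of the 37 peaks.

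Most contacts on these mRNAs lay in the 3′ UTR. Of the 37 peaks 24 were in 3′ UTRs (64.9%, exact Clopper-Pearson 95% interval 47.5 to 79.8, counting error only), 12 in other exons (32.4%) and 1 in a 5′ UTR (2.70%). In the whole list these shares were 57.6%, 36.7% and 5.68%, and the first of them lies within the members' interval. By gene, 16 of the 18 had a 3′ UTR peak (88.9%) and 12 had peaks in the 3′ UTR alone (66.7%). Among all gene symbols in the list the corresponding shares were 70.5% and 52.5%. Against all protein-coding genes, 30.8% of the 52 factors had a 3′ UTR peak beside 5.2%, 11.5% had an exon peak beside 3.16%, and 1.92% had a 5′ UTR peak beside 0.671%. Peaks of 1 gene are not independent, and the lengths of the UTRs were not used.

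By fold, these peaks lay near the middle of the list. Their median log2 fold was 4.50 (22.6-fold), with a range of 3.02 to 6.27, beside 4.60 (24.3-fold) and 3.00 to 11.00 for all peaks, and 16 of the 37 lay above the list's median. A peak at or above that median was found on 9 of the 52 factors (17.3%, beside 4.03% of protein-coding genes), and a peak with a -log10 p of 5 or more also on 9 (17.3%, beside 4.1%). The strongest peak per gene had a median of 4.52 over the 18 genes and 4.69 over all gene symbols in the list. The median -log10 p was 4.95 against 5.68, and none of the 34 peaks at the list's ceiling of 400 belonged to these genes. Median width was 91 nt against 79 nt for all peaks. Within the 37, exon peaks had a median fold of 4.74 and a median width of 70 nt, and 3′ UTR peaks 4.42 and 106 nt. Of the 12 exon peaks 8 came from Pabpc1, Elavl1 and Smg1, so these medians rest on few genes.

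**Figure D3:**
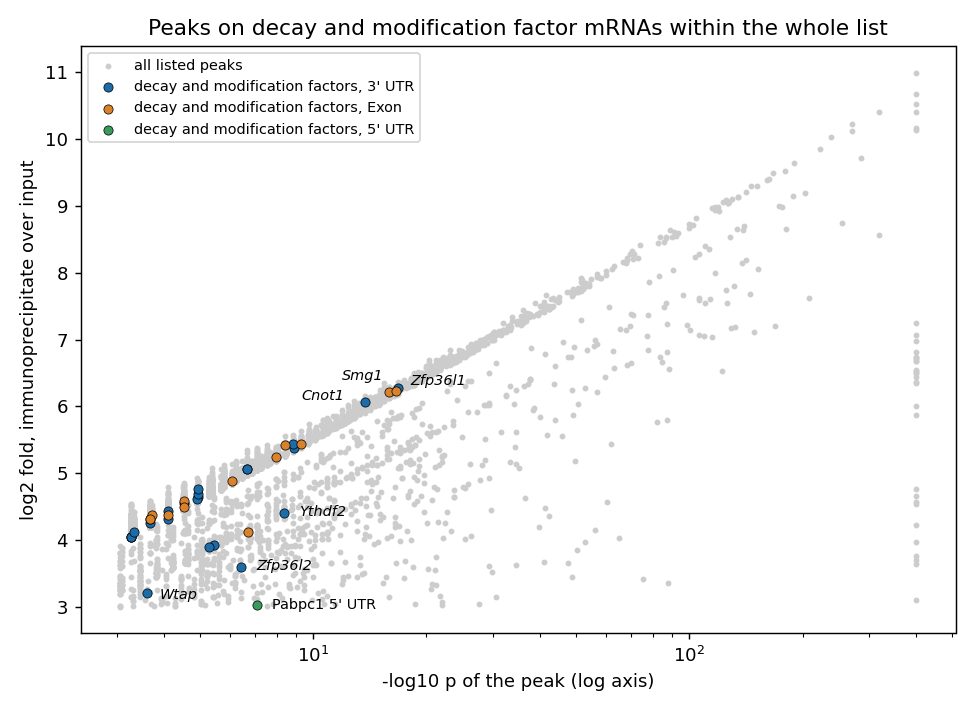
Log2 fold (vertical axis) against the authors' -log10 p (horizontal, log axis) for all 4172 listed peaks (grey) and the 37 peaks on decay and modification factors (coloured by class). Most coloured points lie in a rising band of the cloud, up to Zfp36l1 at 6.27 and 16.8, and not always at its top. At a -log10 p of 3.27, 1 peak each of Ago2, Alkbh5 and Pan3 lay at 4.05, where other listed peaks reached 4.55. The peaks of Zfp36l2, Ythdf2 and Wtap, the Pabpc1 5′ UTR peak and 3 other Pabpc1 peaks lie below the band.

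The list gives no read counts, but its folds fall on steps. If the log2 fold is the mean over 2 library pairs, the squared fold is proportional to the product of both pairs' ratios of immunoprecipitate to input reads. With a single scale factor, chosen after the data were seen, this product was a whole number to within 0.0001 for 32 of the 37 peaks (86.5%) and for 82.4% of all listed peaks, as it would be if each input held 1 read. The square root of the product is read here as the reads of the immunoprecipitate per input read, on the smallest factor found, 0.330. Larger factors of 0.660 and 0.991 made 87.1% and 85.1% of the listed peaks whole. With either of them all values below would be higher, so only their order is free of this choice. By this measure the members' peaks had 4.66 to 44.3 immunoprecipitate reads per input read (geometric mean of the 2 library pairs), with a median of 13.0 beside 14.0 for the whole list. At 15 or fewer stood 24 of the 37 (64.9%), beside 56.2% of all listed peaks. Zfp36l1 had the highest value, 44.3, then Smg1 with 43.0 and 42.7 and Cnot1 with 38.5. Ago2 stood at 9.49, and 84 peaks of the list, its own included, had the same fold and p to 6 decimals. As in the list as a whole, most of these folds may therefore rest on about 1 input read per library, which could not be checked without read counts. If so, a further read in an input would lower them.

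Neighbouring peaks were often pieces of a longer stretch. Of the 37 peaks, 14 (37.8%) touched another peak of the same gene, forming 7 stretches, against 30.5% of the rows of the list. The pieces did not share a direction: going 5′ to 3′, the log2 fold fell by 1.31 within the Pabpc1 exon pair, fell by 1.06 in Dcp2 and fell by 0.84 in the Elavl1 3′ UTR. It was higher in the downstream piece by 0.83 in Zfp36l1, by 0.76 in the Pabpc1 3′ UTR pair and by 0.21 in the Elavl1 exon pair. The Xrn2 pieces, and the Smg1 pair with its gap of 1 nt, differed by 0.01. After joining touching pieces the 37 peaks formed 30 regions, and 5 genes (9.62% of the 52, beside 3.41% of protein-coding genes) had more than 1: Pabpc1 with 7, Pan3 and Smg1 with 3, and Elavl1 and Alkbh5 with 2. Among genes with a peak the order of the shares is the other way round, 27.8% of the 18 members and 46.7% of all symbols in the list.

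**Figure D4:**
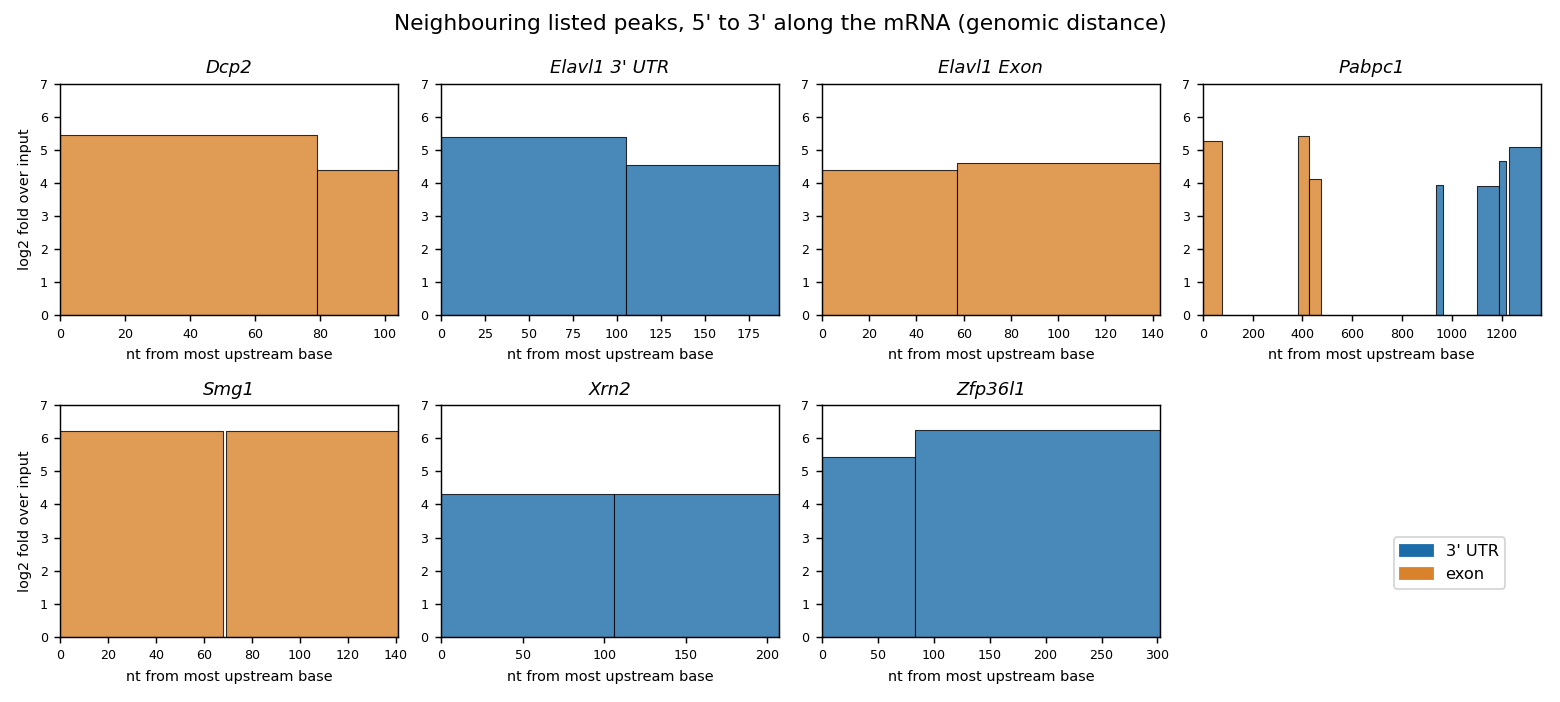
Log2 fold (vertical axis) of neighbouring peaks, drawn to scale in nt of genomic distance from the most upstream base of each cluster and read 5′ to 3′; blue marks the 3′ UTR and orange exons. Touching pieces differ most in Pabpc1 (the Pabpc1 exon pair, where the fold fell by 1.31), whereas the Xrn2 and Smg1 pieces are level.

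A second list of 87 genes, chosen by function from the same pathways, had 18 genes with a peak (20.7%, beside 7.33% of protein-coding genes, with no test for the list or for the small groups in it). Of the proteins that read 3′ UTR elements 6 of 11 had a peak, and all 15 of their peaks lay in 3′ UTRs. They were Khsrp (5.79), a protein that promotes AU-rich mRNA decay, Tial1 (5.47 and 5 peaks), an RNA-binding protein of stress granules, Celf1 (5.32), Rc3h2, Hnrnpd and Celf2. Khsrp had -log10 p values up to 49.6, above every peak of the 52 factors. Deadenylation added 5 of 15: Pabpn1 (6.30 and 5 peaks), the nuclear poly(A)-binding protein, Parn (5.45), a poly(A)-specific ribonuclease, the deadenylase partner Tob1 (5.22), and Btg2 and Paip1. The Pabpn1 peaks of 4.21 and 5.21, but not its strongest, each overlapped a row of another gene. Decapping added 4 of 16, namely Lsm14a (4.92), Pnrc2 (4.55), Lsm3 (4.38) and Eif4enif1. The m6A machinery added 2 of 9, the writer subunit Rbm15 (4.48) and the reader Prrc2a (4.00), both in exons alone. Of the 14 further genes in the exosome group, which are not all subunits of the complex, only Exosc8 (3.55) had a peak. None of the 11 further genes of nonsense-mediated decay and none of the 11 further genes of the Argonaute and microRNA group had a listed peak.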

How the data were processed

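The series has 4 eCLIP libraries of mouse 32D cells, summarised in 1 deposited peak list of 4206 rows on GRCm39, the build in the submitters' processing notes. How reads were aligned, peaks called and thresholded, and replicates joined is not stated in the labels. From its range, the fc column of the authors was taken as log2 fold, and their deposited p_value column as -log10 p. These folds and p-values are the authors', per the file headers, and carry no error. Positions count from 1. Sequences of peaks are not shown, since no genome of this build was used.

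Members were matched by symbol. A peak that appears under 2 gene identifiers (34 cases) entered peak counts once. The background was the 21900 protein-coding genes of RefSeq's GRCm38.p6 table, used for names alone; 1609 of the 1626 symbols in the list matched, as did all 52 members. Members and lists were chosen with earlier results of these data known. Every member with a peak is named, and every other pathway gene with a peak, with folds for the strongest 3 per group. No significance test was run. The read scale is the smallest factor whose product with the squared fold was whole for over 80% of peaks. The search for it was run on simulated reads built on the same model, which checks the code and not whether the model holds here. Peaks were joined when touching. Alternatives were a higher limit on fold or p, joined peaks, 2 regions per gene, 1 peak per gene and matching by synonyms. Python 3.11.15, pandas 2.3.3, scipy 1.17.1 and matplotlib 3.10.9 were used.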

Additional observations from a re-analysis of the deposited data

How the results depend on the processing

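No paired analysis was possible because the list holds no value per library, and for the same reason no replicate could be left out. At or above the list's median fold, 9 of the 52 factors (17.3%) and 9 of the 87 other pathway genes (10.3%) kept a peak. The share of protein-coding genes was 4.03%. The factors' peaks fell to 16, and the median strongest log2 fold of the factors left was 5.42. With only peaks of -log10 p of 5 or more, 9 factors (17.3%) and 8 other genes (9.2%) were left, beside 4.1% of protein-coding genes. The factors had 18 such peaks, again with a median strongest log2 fold of 5.42. Both medians rise by construction, since weak peaks are dropped. When at least 2 separate regions per gene were asked, 5 factors (9.62%) and 10 other genes (11.5%) were left, beside 3.41% of protein-coding genes. The factors' share was then the lower of the 2, whereas with any listed peak the shares were 34.6% and 20.7%. The 3′ UTR share stayed between 55.6% and 77.8% under its alternatives, within the interval of the main share. Since the alternatives reuse the same peaks and the interval is wide, this is no test of the share. Joining peaks left 30 regions when touching and 28 within 50 nt. Without Pabpc1, an alternative chosen after seeing the data, 28 peaks were left, 71.4% of them in 3′ UTRs. Depth per library is unknown, and the read scale gives ratios rather than read counts. The lowest member value on it, 4.66 for the Pabpc1 5′ UTR peak, went with a -log10 p of 7.08.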

Other observations

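The 9 factors that kept a peak at or above the median fold were Pabpc1, Cnot1, Pan3, Dcp2, Smg1, Alkbh5, Zfp36l1, Elavl1 and Pum2. With the limit on p, Ythdf2 and Zfp36l2 took the places of Pan3 and Pum2. Ago2, Cnot6, Cnot6l, Upf3b, Wtap, Xrn2 and Ythdf3 met neither limit.

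The p column of the list also moves in steps, and at many of its values most whole products share a common divisor. The common step at a p was taken as the largest number that divided nearly all whole products there. High shares of divisible products below therefore follow from that choice and are no test of the scale. Only p values held by a member peak and by many peaks of the list were looked at. At the -log10 p of 3.27 that Ago2, Alkbh5 and Pan3 share there were 315 peaks in the list. Of these 314 had a whole-number product of reads on the scale, and all 314 products were multiples of 9. At 3.68, the value of Cnot6l, Upf3b and 1 Xrn2 peak, 217 of 221 were multiples of 10. At 4.10, the value of Cnot6, the weaker Dcp2 piece and the other Xrn2 peak, all 189 whole products were multiples of 11. At 13.7, where Cnot1 stood, all 21 were multiples of 33. The steps do not follow p in a single order: they were 14 at 4.90 (Pan3) but 13 at 4.95 (Pabpc1, Pum2 and Smg1), and 17 at both 6.08 and 6.67. At 5.46, the value of a Pabpc1 3′ UTR peak, the common step was 4, for 17 of 18 whole products. The product on this scale was 90 for Ago2, 120 for Cnot6l, 154 for Cnot6 and 1485 for Cnot1. The products of 5 member peaks were not whole, those of the Pabpc1 5′ UTR peak (21.75), 1 Pabpc1 exon peak (99.75), 1 Pabpc1 3′ UTR peak (72.25), Ythdf2 (149.5) and Zfp36l2 (48.53). The product of Wtap, 28, was whole. Its -log10 p of 3.62 lies between 3.34 and 3.68, where the common step was 10 at both, yet 28 is not a multiple of 10. No common step was taken at 3.62 itself, and steps do not follow p in order, so nothing about the input of Wtap follows. Whether a whole product goes with an input of 1 read was not tested.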
